A study of Mus musculus with 20 samples.

Results

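Loss of the kinase ATM and a block of the transcription factor NF-kB, both of which act in the response to unrepaired DNA breaks, were set against each other in mouse pre-B cell lines. The lines were transformed with v-abl, an oncogenic kinase that holds pre-B cells in proliferation. The comparison takes 7 of the 20 arrays of the series. The Artemis-ATM-deficient group is made of v-abl-transformed pre-B lines deficient in Artemis and in ATM, with 4 arrays from 2 lines, and the technical arrays of each line were averaged to give 2 samples. The IkB-DN group is made of Artemis-deficient v-abl-transformed pre-B lines that express a dominant negative IkB, with 1 array each for 3 samples. Both groups lack Artemis. The 3 Artemis-deficient samples with neither change serve as the common background, and 3 RAG-2-deficient and 3 wild type samples of the same kind of line entered the fit so that 5 groups share 1 estimate of spread. Every line had received STI571 at 3 uM, over 48 hours. STI571 (imatinib) inhibits the v-abl kinase, which stops the proliferation of these transformed cells and lets them move on to immunoglobulin light chain gene rearrangement. No group was left untreated among the lines, so each value is a level after STI571. The labels state neither the vector nor the form of the dominant negative IkB.

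In developing B cells the RAG-1 and RAG-2 endonuclease cuts the immunoglobulin genes, and Artemis opens the hairpin-sealed coding ends so that they can be joined. Without Artemis the coding ends stay unrepaired, and ATM, a kinase that break ends activate, phosphorylates p53, checkpoint proteins and the signalling chain that frees NF-kB. IkB proteins hold NF-kB in the cytoplasm until they are phosphorylated and degraded, and dominant negative forms of IkB resist that step, so NF-kB target genes are blocked while other ATM pathways are not acted on directly.

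A level below is log2(signal + 6) of a probe set, a difference is the Artemis-ATM-deficient mean minus the IkB-DN mean ± SE on that scale, and a gene was called at a limma adjusted p under 0.05 (2 against 3 samples). Of 44200 probe sets, 21921 passed the filter on low signal and 21634 were tested in this comparison. Differential expression was called for 1436 probe sets (6.64% of those tested), of which 666 were higher (3.08%) and 770 lower (3.56%) in the Artemis-ATM-deficient lines. Taking 1 probe set per gene, the one with the highest mean level, 692 of 9775 genes were called (7.08%), 273 higher (2.79%) and 419 lower (4.29%). Of the called genes, 419 differed by more than 2-fold and 155 by more than 4-fold. Against the Artemis-deficient lines, 32 of 9762 genes were called in the Artemis-ATM-deficient lines (0.328%) and 229 of 9762 in the IkB-DN lines (2.35%). These last comparisons share the Artemis-deficient samples. In bulk RNA, fewer cells of a type and less RNA per cell cannot be told apart.

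How independent the IkB-DN samples are bears on every call. The series' design text counts them as biological replicates, but their levels correlated at 0.976 to 0.983 with each other, about as closely as the technical arrays of 1 line (0.982 and 0.984). The 2 Artemis-ATM-deficient lines correlated at 0.939, and Artemis-deficient samples at 0.916 to 0.947. With the IkB-DN arrays averaged to 1 sample, 4 probe sets were called, none of them the probe set taken for a gene. Where a called gene was still tested, its difference stayed the same, since averaging does not change the group mean. The lowest limma adjusted p of a gene, by the probe set taken for it, was then 0.07. By these probe sets, the calls of named genes between the Artemis-ATM-deficient and IkB-DN lines below therefore hold only if the 3 IkB-DN samples are counted as separate. Whether the 4 include other probe sets of named genes was not read. Of the calls against the Artemis-deficient lines given below, those of Relb and Nfkbie held in both perturbed groups with the arrays averaged (limma adjusted p = 0.00464 to 0.0384). Those of Nfkb2, Ltb, Tnfrsf19 and Tnfsf10 did not (adjusted p = 0.104 to 0.762). Leaving out each of the 5 compared samples in turn gave 344 to 676 called probe sets, and 65 genes, 21 higher and 44 lower, were called in every such fit.

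**Figure D1:**
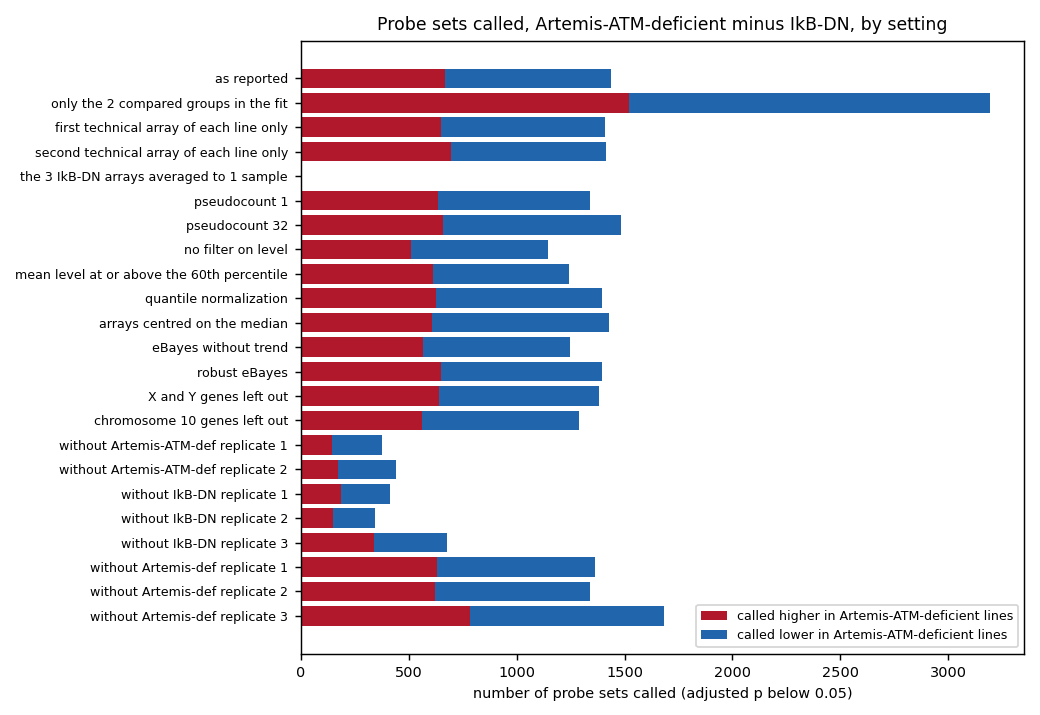
Number of probe sets called between the Artemis-ATM-deficient and IkB-DN lines (horizontal axis, probe sets) under each processing setting, split into those higher and those lower in the Artemis-ATM-deficient lines. Most settings gave 1145 to 1486 calls, leaving out a compared sample gave 344 to 676, averaging the IkB-DN arrays to 1 sample gave 4, and a fit of only the compared groups gave 3193.

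The targeted genes were read first. One of the 2 probe sets for Atm had levels of 5.44 and 5.48 in the Artemis-ATM-deficient lines, against 7.05, 7.0 and 6.93 in the IkB-DN lines and 6.93, 6.42 and 6.93 in the Artemis-deficient lines. It fell by 1.53 ± 0.15 against the IkB-DN lines (limma adjusted p = 0.00109). The other, with the higher mean level, differed by -0.50 ± 0.17 (adjusted p = 0.0954), and the labels do not say which part of Atm the lines lack. Dclre1c, which encodes Artemis, did not pass the filter. Nfkbia, which encodes IkB-alpha and is itself an NF-kB target, had levels of 11.85 and 11.33 in the Artemis-ATM-deficient lines, against 11.03, 10.81 and 11.13 in the IkB-DN lines and 12.22, 12.01 and 12.26 in the Artemis-deficient lines. The difference of 0.60 ± 0.20 was not called (adjusted p = 0.102, 95% interval 0.15 to 1.04), and a transcript of the dominant negative form may or may not be read by these probes, so Nfkbia checks no label. Both groups expressed pre-B genes, read as a check of the labelled cell type: Cd79a, a chain of the B cell receptor complex, stood at 12.60 and 12.53 in the Artemis-ATM-deficient lines and at 12.29, 12.28 and 12.27 in the IkB-DN lines. Vpreb1, a surrogate light chain gene, stood at 12.15 and 12.44 in the Artemis-ATM-deficient lines and at 12.13, 12.28 and 12.33 in the IkB-DN lines.

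Of 12 tested genes for NF-kB subunits and IkB inhibitors (13 listed), none was called between the Artemis-ATM-deficient and IkB-DN lines by limma, where 7.08% of all genes were. Of these, 4 had an unadjusted p under 0.05, beside 2418 of the 9775 genes, and their median difference was 0.06, beside -0.02 over all genes tested. Relb, a subunit of the alternative NF-kB pathway, had levels of 5.43 and 4.79 in the Artemis-ATM-deficient lines, against 4.48, 4.62 and 4.70 in the IkB-DN lines and 7.29, 6.99 and 7.18 in the Artemis-deficient lines. Both perturbed groups sat below all Artemis-deficient samples, and between them the difference was 0.51 ± 0.20 (adjusted p = 0.151, 95% interval 0.07 to 0.95). Against the Artemis-deficient lines, Relb fell by 2.04 in the Artemis-ATM-deficient lines (adjusted p = 0.000826) and by 2.55 in the IkB-DN lines (adjusted p = 0.000117). Rela, the main activating subunit, stood at 8.36 and 8.30 in the Artemis-ATM-deficient lines, against 9.15, 8.81 and 8.71 in the IkB-DN lines, without overlap but also without a call (-0.56 ± 0.16, adjusted p = 0.0542).

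Other NF-kB genes were picked after their values were seen because they showed the closest levels. Nfkbie, which encodes IkB-epsilon, had levels of 7.95 and 8.12 in the Artemis-ATM-deficient lines, against 8.06, 7.84 and 7.97 in the IkB-DN lines and 10.28, 9.97 and 10.28 in the Artemis-deficient lines. The perturbed groups overlapped (difference 0.08 ± 0.19, 95% interval -0.35 to 0.50), and against the Artemis-deficient lines Nfkbie fell by 2.15 in the Artemis-ATM-deficient lines (adjusted p = 0.00035) and by 2.22 in the IkB-DN lines (adjusted p = 0.000117). For Nfkb2, which encodes p100 and p52, the probe set with the lower mean level stood at 4.33 and 4.27 in the Artemis-ATM-deficient lines, against 4.38, 4.09 and 4.19 in the IkB-DN lines and 7.71, 7.56 and 7.16 in the Artemis-deficient lines. These levels too overlapped between the perturbed groups (0.08 ± 0.28, 95% interval -0.53 to 0.70). The other probe set of Nfkb2 differed by -0.07 ± 0.19 between them, and by -0.89 (adjusted p = 0.0901) in the Artemis-ATM-deficient lines and -0.82 (adjusted p = 0.0292) in the IkB-DN lines against the Artemis-deficient lines. Pim2, a survival kinase, had levels of 6.81 and 5.22 in the Artemis-ATM-deficient lines, against 6.98, 6.34 and 6.36 in the IkB-DN lines and 9.34, 9.98 and 10.62 in the Artemis-deficient lines. Its interval was wide (-0.54 ± 0.62, 95% interval -1.89 to 0.80), as the 2 Artemis-ATM-deficient lines differed from each other. Swap70, which acts in B cell migration, differed by -0.10 (95% interval -0.62 to 0.42) and Cd69, an early activation antigen, by -0.03 (95% interval -0.87 to 0.81). A missed threshold does not show equal levels, and for Pim2 and Cd69 the intervals still hold differences near 1 log2 unit.

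Among the 26 tested NF-kB target genes (of 38 listed), 1 rose and 2 fell in the Artemis-ATM-deficient lines, and 9 had an unadjusted p under 0.05. The share called, 11.5%, stands beside 7.08% of all genes. The median difference was -0.12, and it was -0.37 without Artemis-ATM-deficient line 1 and 0.10 without line 2. Against the Artemis-deficient lines the medians over these genes were -0.89 in the Artemis-ATM-deficient lines, with 5 called, and -0.68 in the IkB-DN lines, with 9 called. Over all genes tested, these medians were -0.019 and 0.005, and 0.328% and 2.35% of genes were called. Ltb, which encodes lymphotoxin beta, a TNF family ligand for lymphoid organ formation, had the largest difference of the called targets. Like Icam1 and Bcl2l1, Ltb was not called in every fit that left out a compared sample. It had levels of 5.05 and 4.00 in the Artemis-ATM-deficient lines, against 9.49, 9.28 and 8.60 in the IkB-DN lines and 8.87, 9.61 and 10.24 in the Artemis-deficient lines. Ltb fell by 4.59 ± 0.81 against the IkB-DN lines (adjusted p = 0.00975) and by 5.05 against the Artemis-deficient lines (adjusted p = 0.0259), while the IkB-DN lines differed from the Artemis-deficient lines by -0.45 (adjusted p = 0.79). Icam1, an adhesion molecule for lymphocyte integrins, stood at 7.32 and 7.62 in the Artemis-ATM-deficient lines, against 8.01, 8.04 and 8.12 in the IkB-DN lines, and fell by 0.58 ± 0.16 (adjusted p = 0.0474). Bcl2l1, which encodes the survival protein BCL-XL, stood at 8.49 and 8.26 in the Artemis-ATM-deficient lines, against 7.45, 7.61 and 7.79 in the IkB-DN lines and 8.21, 8.11 and 8.22 in the Artemis-deficient lines, and rose by 0.75 ± 0.15 (adjusted p = 0.0167). Among the 16 tested upstream signalling genes (of 20 listed), only Tnip2, which encodes an inhibitor of NF-kB activation, was called. That share, 6.2%, lies near the 7.08% of all genes. Tnip2 had levels of 3.56 and 4.02 in the Artemis-ATM-deficient lines, against 5.45, 6.11 and 5.62 in the IkB-DN lines (-1.94 ± 0.35, adjusted p = 0.0112).

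**Figure D2:**
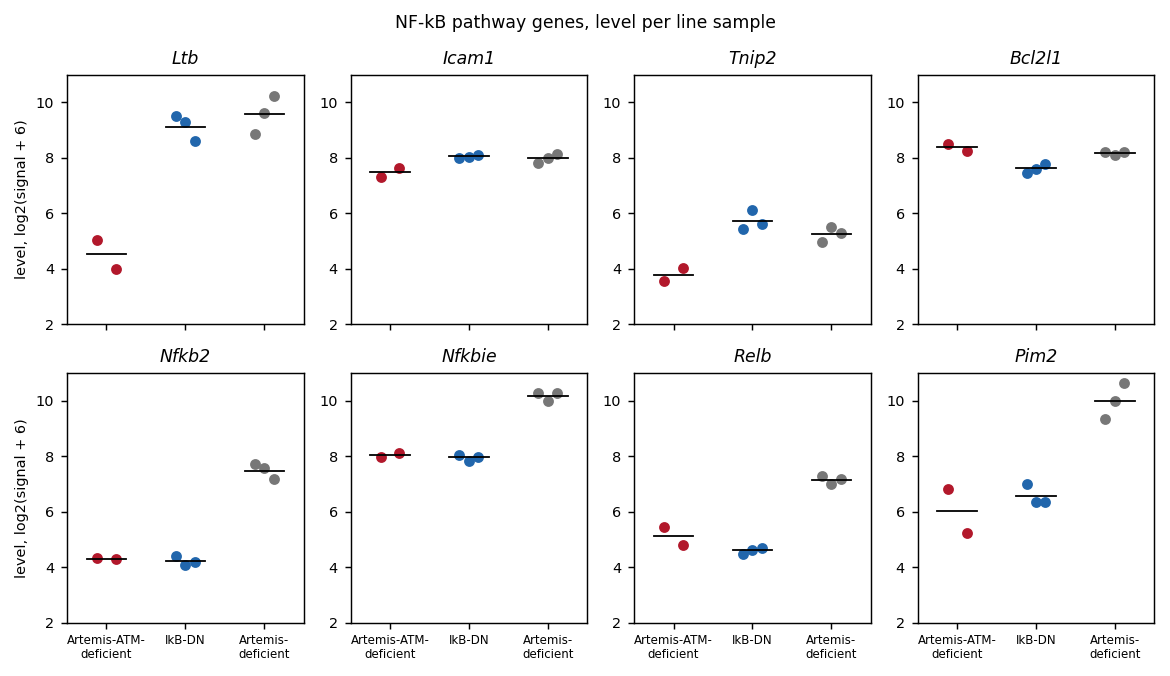
Levels, log2(signal + 6), of NF-kB system and target genes in each Artemis-ATM-deficient, IkB-DN and Artemis-deficient sample (points) with group means (bars), 1 probe set per gene (for Nfkb2 the one with the lower mean level). Nfkbie and Relb are low in both perturbed groups, whereas Ltb is at 4.00 to 5.05 only in the Artemis-ATM-deficient lines and at 8.60 or above in the others.

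The promoters of 4 of these genes are shown for a kB-like sequence. It is found both in Ltb, which was called between the groups, and in Nfkbia, Nfkb2 and Nfkbie, which were not. They are the 250 bases before the RefSeq gene start in GRCm38.p6, 5′ to 3′ on the gene's strand. Capitals mark GGGA, any 2 bases, then TTCC (the strict kB sequence) or GGG, any 4 bases, then TCC (the looser one), searched on both strands. Strict matches are also looser matches. Nfkb2 has 3 windows, and the 1 shown holds a match.
Ltb (chr17:35194257-35194506, plus strand): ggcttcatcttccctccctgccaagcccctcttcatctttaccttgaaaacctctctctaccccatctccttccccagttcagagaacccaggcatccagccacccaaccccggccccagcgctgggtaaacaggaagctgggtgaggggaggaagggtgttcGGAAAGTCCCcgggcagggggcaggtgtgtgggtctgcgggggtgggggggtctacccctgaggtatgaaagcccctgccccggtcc
Nfkbia (chr12:55492648-55492897, minus strand): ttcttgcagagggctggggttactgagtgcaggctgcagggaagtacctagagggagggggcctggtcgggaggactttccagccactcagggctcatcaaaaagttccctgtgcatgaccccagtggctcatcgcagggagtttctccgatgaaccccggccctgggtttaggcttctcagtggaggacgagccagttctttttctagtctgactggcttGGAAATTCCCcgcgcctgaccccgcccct
Nfkb2 (chr19:46305680-46305929, plus strand): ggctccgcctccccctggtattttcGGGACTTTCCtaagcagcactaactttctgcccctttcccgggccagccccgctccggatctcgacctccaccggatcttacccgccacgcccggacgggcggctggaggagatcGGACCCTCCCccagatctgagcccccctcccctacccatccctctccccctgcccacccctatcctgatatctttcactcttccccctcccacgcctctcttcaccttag
Nfkbie (chr17:45555450-45555699, plus strand): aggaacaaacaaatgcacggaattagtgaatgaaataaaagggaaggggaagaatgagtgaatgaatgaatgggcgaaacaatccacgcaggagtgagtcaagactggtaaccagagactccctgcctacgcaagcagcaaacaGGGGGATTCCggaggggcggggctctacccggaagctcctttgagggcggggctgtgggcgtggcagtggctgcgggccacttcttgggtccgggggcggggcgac
The strict match began 87 bases before the start in Ltb, 29 before it in Nfkbia and 225 before it in Nfkb2, which also held a looser match at 110 bases. The match in Nfkbie, looser only, began 106 bases before the start. Of 27025 genes with a window of 250 bases before and 50 after the start, 1.63% held the strict sequence and 21.3% the looser one, and among the 7986 tested genes with a window the shares were 1.73% and 27.0%. Genes called higher held the strict sequence in 5 of 221 cases (2.26%) and genes called lower in 4 of 359 (1.11%). The NF-kB targets held it in 3 of 20. A match is a run of letters and says nothing of binding.

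In the p53 arm of the response, 27 of 37 listed target genes were tested, none rose and 2 fell in the Artemis-ATM-deficient lines, a share of 7.4% that lies near the 7.08% of all genes. Ddb2, a DNA damage recognition gene, had levels of 6.06 and 6.70 in the Artemis-ATM-deficient lines, against 7.53, 7.71 and 7.62 in the IkB-DN lines and 6.13, 6.93 and 6.44 in the Artemis-deficient lines. It fell by 1.24 ± 0.28 (adjusted p = 0.0263), with a second probe set also called lower. Abhd4, a lipid hydrolase, stood at 7.08 and 6.18 in the Artemis-ATM-deficient lines, against 8.22, 8.43 and 8.36 in the IkB-DN lines (-1.71 ± 0.32, adjusted p = 0.0126). The list's median difference was 0.26, and it was 0.81 without Artemis-ATM-deficient line 1 and -0.33 without line 2. Against the Artemis-deficient lines the medians were -0.99 in the Artemis-ATM-deficient lines, with no gene called, and -1.11 in the IkB-DN lines, with 2 called. Over all genes tested, these medians were -0.019 and 0.005, and 0.328% and 2.35% of genes were called.

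The p53 targets varied between samples of 1 group. Taken as the median deviation of the list from the mean over the lines, the Artemis-ATM-deficient lines lay at -0.61 and 0.29, the IkB-DN lines at -0.44, -0.53 and -0.26, and the Artemis-deficient lines at 1.06, 1.19 and -0.32. Cdkn1a, which encodes the cell cycle inhibitor p21 and was chosen after its values were seen, had levels of 6.12 and 10.09 in the Artemis-ATM-deficient lines, against 6.61, 7.12 and 8.58 in the IkB-DN lines and 10.66, 10.93 and 7.45 in the Artemis-deficient lines. Artemis-ATM-deficient line 1 and Artemis-deficient replicate 3 were thus the low samples of their groups.

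Of 18 tested genes of break signalling (20 listed), 1 fell, and of 8 tested genes of non-homologous end joining (11 listed), 2 fell. The share called was 5.6% in the first list and 25% (2 of 8 genes) in the second, beside 7.08% of all genes. Prkdc, in both lists, encodes the catalytic subunit of DNA-PK, which activates Artemis, and stood at 6.14 and 6.21 in the Artemis-ATM-deficient lines, against 7.07, 6.94 and 6.86 in the IkB-DN lines and 6.78, 6.61 and 6.65 in the Artemis-deficient lines (-0.78 ± 0.21, adjusted p = 0.0437). Poll, the end-joining polymerase lambda, stood at 5.09 and 5.46 in the Artemis-ATM-deficient lines, against 5.98, 5.95 and 6.16 in the IkB-DN lines (-0.76 ± 0.19, adjusted p = 0.0386). None of 8 tested homologous recombination genes (13 listed) was called, and the smallest p values belonged to Brca2 (-0.56), Rad51c (1.03) and Palb2 (-0.52).

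Of 14 tested RAG and pre-B receptor genes (17 listed), Rag1 alone was called, a share of 7.1% that lies near the 7.08% of all genes. Rag1 had levels of 10.82 and 9.0 in the Artemis-ATM-deficient lines, against 11.95, 12.14 and 11.90 in the IkB-DN lines and 11.45, 10.95 and 11.47 in the Artemis-deficient lines. It fell by 2.09 ± 0.42 (adjusted p = 0.0152). Rag2, the partner subunit, stood at 7.49 and 5.99 in the Artemis-ATM-deficient lines and at 8.85, 8.90 and 8.95 in the IkB-DN lines, also without overlap, but its spread over the lines was larger (-2.16 ± 0.83, adjusted p = 0.139). As RAG makes the breaks in these lines, the level of Rag1 differed together with the genes compared here, and its part in them was not tested.

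Every call among the immediate early, cytokine and adhesion genes was lower with ATM loss than with the NF-kB block, but these calls are few. The shares called were 27.3% of immediate early, 17.6% of cytokine and TNF family and 11.1% of homing and adhesion genes, beside 7.08% of all genes. In the same order the list medians were -0.21, -0.04 and -0.15, beside -0.02 over all genes tested. Of 11 tested immediate early genes (18 listed), 3 fell. Jun, an AP-1 subunit, had levels of 7.18 and 6.95 in the Artemis-ATM-deficient lines, against 10.39, 10.27 and 10.01 in the IkB-DN lines and 9.64, 8.83 and 9.60 in the Artemis-deficient lines. Jun fell by 3.16 ± 0.48 (adjusted p = 0.0051) and was called in every fit that left out a compared sample. Ier2 fell by 0.73 ± 0.17 (adjusted p = 0.03) and Zfp36, which encodes the mRNA-destabilising protein tristetraprolin, by 0.71 ± 0.19 (adjusted p = 0.0468). The list's median difference was -0.21, and it was 0.02 without Artemis-ATM-deficient line 1 and -0.71 with a stricter filter on level.

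Of 17 tested cytokine and TNF family genes (31 listed), 3 fell, Ltb among them. Tnfrsf19, the orphan TNF receptor TROY, had levels of 6.16 and 6.29 in the Artemis-ATM-deficient lines, against 9.67, 9.60 and 9.66 in the IkB-DN lines and 8.37, 8.39 and 7.76 in the Artemis-deficient lines. The Artemis-deficient level lay between the perturbed groups: Tnfrsf19 fell by 3.42 ± 0.34 in the direct comparison (adjusted p = 0.00109), fell by 1.95 in the Artemis-ATM-deficient lines against the Artemis-deficient lines (adjusted p = 0.0396), and rose by 1.47 in the IkB-DN lines against them (adjusted p = 0.032). Tnfsf10, which encodes the death ligand TRAIL, had levels of 5.05 and 5.19 in the Artemis-ATM-deficient lines, against 7.0, 7.16 and 6.92 in the IkB-DN lines and 5.12, 5.21 and 4.99 in the Artemis-deficient lines. Here the IkB-DN lines were the group that stood apart (-1.91 ± 0.24, adjusted p = 0.00221, and 1.92 for IkB-DN minus Artemis-deficient, adjusted p = 0.00194). Of 18 tested homing and adhesion genes (23 listed), 2 fell, Icam1 and Cd44. Cd44, the hyaluronan receptor, stood at 3.45 and 2.91 in the Artemis-ATM-deficient lines, against 6.34, 6.11 and 6.60 in the IkB-DN lines and 7.31, 7.53 and 8.53 in the Artemis-deficient lines (-3.17 ± 0.80, adjusted p = 0.0404).

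Of 9 tested genes of IL-7 receptor, STAT5 and SOCS signalling (10 listed), 2 rose, while 4 members had a positive and 5 a negative difference, with a median of -0.04. The share called was 22.2%, beside 7.08% of all genes. Socs2, a STAT5-induced inhibitor, had levels of 11.19 and 11.06 in the Artemis-ATM-deficient lines, against 9.82, 9.94 and 9.74 in the IkB-DN lines and 10.11, 10.33 and 10.13 in the Artemis-deficient lines. It rose by 1.29 ± 0.17 (adjusted p = 0.00278), and its other 4 probe sets were called higher too. Socs1 stood at 6.80 and 8.37 in the Artemis-ATM-deficient lines, against 5.90, 5.65 and 5.56 in the IkB-DN lines (1.88 ± 0.47, adjusted p = 0.0355).

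Cell cycle genes gave 2 calls among 11 tested D cyclins and CDK inhibitors (12 listed), a share of 18.2% beside 7.08% of all genes. Cdkn2c, which encodes the CDK4 and CDK6 inhibitor p18, had levels of 9.70 and 10.21 in the Artemis-ATM-deficient lines, against 8.04, 7.69 and 7.95 in the IkB-DN lines and 9.10, 8.62 and 7.42 in the Artemis-deficient lines (2.07 ± 0.49, adjusted p = 0.0293). Ccnd3, the cyclin of pre-B cell expansion, stood at 11.13 and 11.16 in the Artemis-ATM-deficient lines, against 9.50, 9.74 and 10.08 in the IkB-DN lines (1.38 ± 0.38, adjusted p = 0.0491); of its other 2 probe sets, 1 was called higher and 1 differed by -0.09.

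The G2 and M phase genes lay on 1 side, yet none was called. All 22 tested genes (of 24 listed) had a positive difference, 21 with groups that did not overlap, where 4911 of 9713 genes with 5 values did not overlap. Their median difference was 1.89, 10 had an unadjusted p under 0.05, and none reached the adjusted threshold. Birc5, which encodes the mitotic protein survivin, had levels of 7.11 and 7.19 in the Artemis-ATM-deficient lines, against 3.91, 3.41 and 3.99 in the IkB-DN lines and 6.48, 5.41 and 4.19 in the Artemis-deficient lines (3.38 ± 1.16, adjusted p = 0.104). Kif20a, a mitotic kinesin, differed by 2.40 ± 0.80 (adjusted p = 0.0955) and Ccnb2, a mitotic cyclin, by 2.85 ± 1.01 (adjusted p = 0.113). Median deviations of the list were 0.99 and 1.00 in the Artemis-ATM-deficient lines, -0.55, -1.13 and -1.12 in the IkB-DN lines, and 0.17, -0.12 and -1.28 in the Artemis-deficient lines, so the unmodified lines spanned most of the range. None of 17 tested S phase and replication genes (24 listed) was called, with a median of -0.17. Cdt1, a licensing factor, was nearest (-1.71, adjusted p = 0.0744), and its other probe set was called lower (-1.83).

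**Figure D3:**
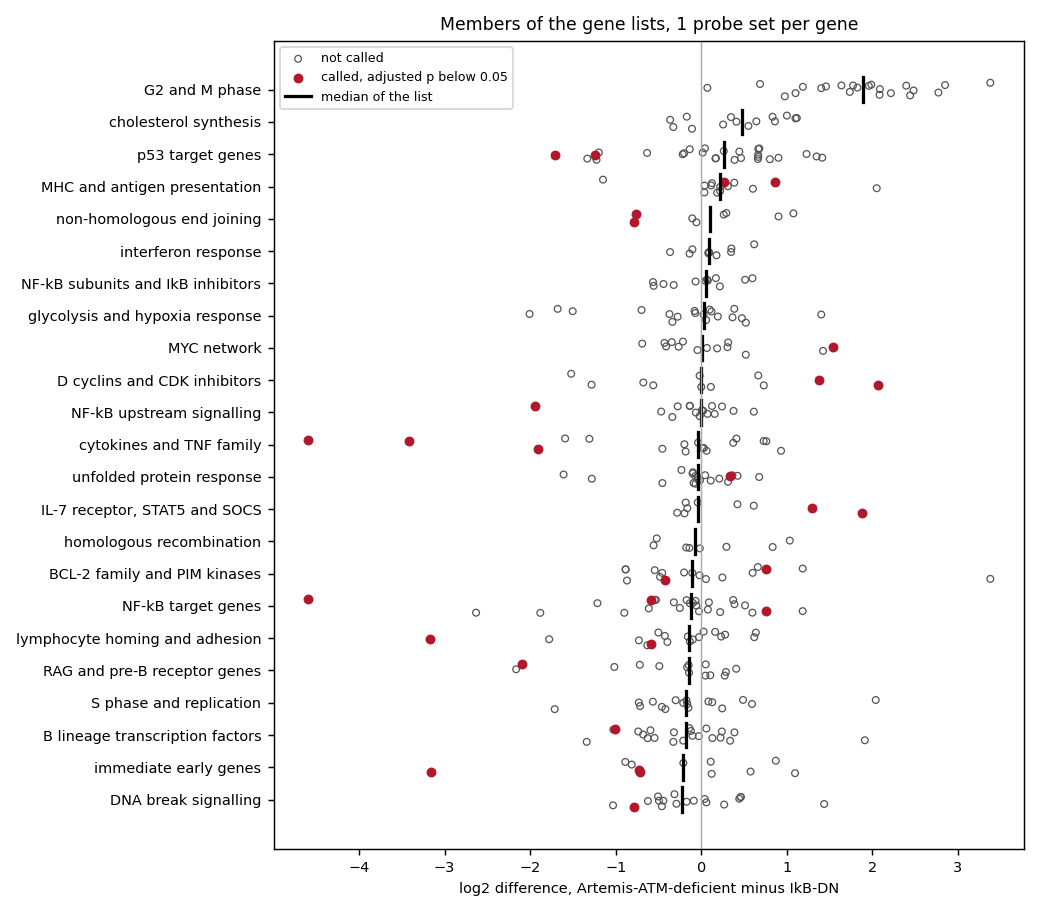
Differences, Artemis-ATM-deficient minus IkB-DN (log2, horizontal axis), of every tested member of each gene list (points, called members marked), with the list median (bar). The G2 and M phase members all lie above 0 with a median of 1.89, and the NF-kB lists centre near 0 with Ltb at -4.59.

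In the lists of survival and growth genes the shares called were 11.8% (BCL-2 family and PIM), 7.1% (MYC network) and 5.0% (unfolded protein response), beside 7.08% of all genes. Of 17 tested BCL-2 family and PIM genes (20 listed), Bcl2l1 rose and Xiap, a caspase inhibitor, fell (-0.43 ± 0.12, adjusted p = 0.046). None of the 4 other probe sets of Xiap was called (-0.45 to 0.03). Of 14 tested MYC network genes (16 listed), Nme1, a nucleoside diphosphate kinase, rose (1.54 ± 0.38, adjusted p = 0.0356). Of 20 unfolded protein response genes, all tested, Herpud1, a component of protein degradation at the endoplasmic reticulum, rose by 0.33 (adjusted p = 0.0372). No call came among 14 tested cholesterol synthesis genes (17 listed; median 0.48, but 0.20 without Artemis-ATM-deficient line 1 and 0.88 without line 2; 7 with an unadjusted p under 0.05), of which Srebf2, the regulator of the pathway, differed by 1.00 (adjusted p = 0.0641). None came among 19 tested glycolysis and hypoxia genes (22 listed; median 0.03) or 10 tested interferon response genes (25 listed; median 0.09).

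Among genes of B cell identity, the shares called were 4.5% of B lineage transcription factors, 16.7% of plasma cell markers and 14.3% of MHC and antigen presentation genes, beside 7.08% of all genes. Of 22 B lineage transcription factors, all tested, Bcl6, a repressor induced in pre-B cells as they leave the cell cycle, fell by 1.01 ± 0.27 (adjusted p = 0.0471), with levels of 8.33 and 8.19 in the Artemis-ATM-deficient lines, against 9.13, 9.17 and 9.50 in the IkB-DN lines. Among 6 tested plasma cell markers (9 listed), Prdm1, the plasma cell regulator BLIMP-1, rose. Prdm1 stood at 9.34 and 6.80 in the Artemis-ATM-deficient lines, against 4.02, 4.48 and 4.02 in the IkB-DN lines and 5.54, 4.87 and 7.32 in the Artemis-deficient lines (3.90 ± 0.92, adjusted p = 0.0299). Of 14 tested MHC and antigen presentation genes (18 listed), 13 had positive differences with a median of 0.22, and 2 rose: Nlrc5, the class I transactivator (0.87 ± 0.24, adjusted p = 0.0495), and H2-K1, a class I heavy chain (0.27 ± 0.07, adjusted p = 0.0356), whose probes may also read near-identical class I genes. None of the 3 other probe sets of H2-K1 was called (0.14 to 0.32). None of 6 tested mature B cell markers (9 listed) or 5 tested early progenitor markers (10 listed) was called.

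The genes with the largest differences were named by rank. Among the 15 largest rises, Pfn2, which encodes the actin-binding protein profilin 2, had levels of 8.65 and 8.67 in the Artemis-ATM-deficient lines, against 2.73, 3.43 and 3.73 in the IkB-DN lines and 7.06, 9.78 and 7.05 in the Artemis-deficient lines (5.36 ± 0.77, adjusted p = 0.00385). Vsir, the inhibitory receptor VISTA, stood at 8.0 and 7.95 in the Artemis-ATM-deficient lines, against 4.29, 3.58 and 3.61 in the IkB-DN lines (4.15 ± 0.57, adjusted p = 0.0033). Sptbn1, a spectrin of the membrane skeleton, stood at 10.67 and 9.79 in the Artemis-ATM-deficient lines, against 3.71, 2.94 and 3.86 in the IkB-DN lines (6.73 ± 1.51, adjusted p = 0.0239). For Sptbn1 the Artemis-deficient levels were 10.48, 10.63 and 3.76, so that replicate 3 matched the IkB-DN lines and replicates 1 and 2 the Artemis-ATM-deficient lines. Trim5, an antiviral restriction factor family member, rose by 3.88 ± 0.45 (adjusted p = 0.00278). The other rises by rank, apart from Xist, were Slco1a5 (4.61), Cacna1e (4.44), Eng (4.34), Lrrn3 (4.32), Gbp6 (4.20), Cpeb2 (4.09), Smtnl2 (4.07), Nxnl2 (3.93), Prdm1 and Camk4 (3.84), with adjusted p of 0.00759 for Gbp6 and up to 0.0427 for Camk4.

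Among the 15 largest falls, Rnase4, a secreted ribonuclease, had levels of 3.97 and 5.55 in the Artemis-ATM-deficient lines, against 9.29, 9.29 and 9.38 in the IkB-DN lines and 7.70, 6.82 and 8.14 in the Artemis-deficient lines (-4.56 ± 0.54, adjusted p = 0.0018). Retreg1, a receptor for autophagy of the endoplasmic reticulum, stood at 2.78 and 3.51 in the Artemis-ATM-deficient lines, against 8.91, 9.06 and 8.98 in the IkB-DN lines and 6.21, 5.21 and 9.35 in the Artemis-deficient lines (-5.84 ± 0.91, adjusted p = 0.00558). Aim2, a cytosolic DNA sensor, stood at 2.95 and 3.56 in the Artemis-ATM-deficient lines, against 7.85, 8.05 and 8.39 in the IkB-DN lines and 4.83, 6.58 and 7.84 in the Artemis-deficient lines (-4.84 ± 1.07, adjusted p = 0.0227). For Retreg1 and Aim2 replicate 3 of the Artemis-deficient lines was again the sample at the IkB-DN level. Garem1, an adaptor of growth factor receptor signalling, fell by 7.02 ± 1.08 (adjusted p = 0.00779) and Gsn, which encodes the actin-severing protein gelsolin, by 4.24 ± 0.98 (adjusted p = 0.0266), with all 4 other probe sets of Gsn called lower. The other autosomal falls by rank were A630023P12Rik (-5.46), Rnf130 (-5.33), Lyz1 (-4.98), Ltb, Endou (-4.48), Ankrd33b (-4.40) and Igsf5 (-4.30). Lyz1 and Igsf5 would not have passed the filter on low signal without the IkB-DN samples, where they are high. Their values are therefore given as a description.

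**Figure D4:**
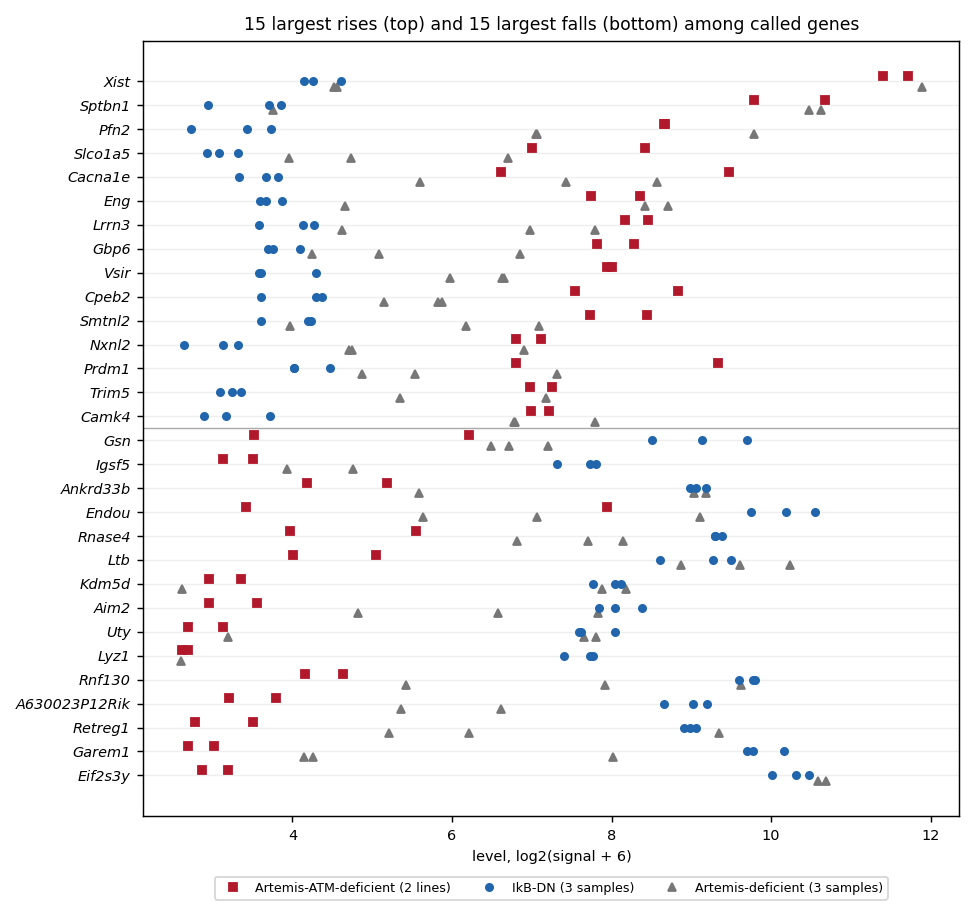
Levels, log2(signal + 6), of the genes with the 15 largest rises and the 15 largest falls in each Artemis-ATM-deficient, IkB-DN and Artemis-deficient sample. The perturbed groups do not overlap for any gene shown, which the ranking required, and the Artemis-deficient points are often spread between them, as for Sptbn1 at 10.48, 10.63 and 3.76. Lyz1 and Igsf5 would not have passed the filter on low signal without the IkB-DN samples and are shown as a description.

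Of the 85 named genes that were tested, 55 were called, and 11 of these were called in every fit that left out a compared sample. The 11 include Lyz1 and Igsf5, which needed the IkB-DN samples to pass the filter. Of the 65 genes called in every leave-out fit, Serpinb6b, Iqgap2, Hoxb6 and Trem1, all lower, also passed it through the IkB-DN samples alone. The excess of lower over higher genes among the 65 is therefore given as a description. For Tnfsf10, Cd44, Bcl6, Abhd4, Herpud1, Nxnl2 (0.31), Cacna1e, Endou and Ankrd33b, the other probe set kept the sign without a call. Of the other probe sets of Camk4 (4) and Cpeb2 (2), 1 each was called. The 65 genes called in every leave-out fit held smaller changes of narrow spread as well, from which the next 4 were picked after their values were seen. Tpp1, a lysosomal peptidase, had levels of 9.44 and 9.50 in the Artemis-ATM-deficient lines, against 8.24, 7.77 and 7.74 in the IkB-DN lines and 10.00, 10.06 and 9.84 in the Artemis-deficient lines (1.55 ± 0.17, adjusted p = 0.00148). Casp8, the caspase of death receptor signalling, stood at 9.29 and 9.12 in the Artemis-ATM-deficient lines, against 10.33, 10.46 and 10.18 in the IkB-DN lines and 8.94, 9.27 and 9.34 in the Artemis-deficient lines (-1.12 ± 0.14, adjusted p = 0.00278). In both genes the IkB-DN lines were the group apart from the Artemis-deficient levels. Cited2, a transcriptional co-regulator, stood at 9.71 and 9.14 in the Artemis-ATM-deficient lines, against 7.31, 6.84 and 6.97 in the IkB-DN lines and 7.95, 7.58 and 7.65 in the Artemis-deficient lines (2.39 ± 0.28, adjusted p = 0.0018). Apobec3, a cytidine deaminase that restricts retroviruses, stood at 8.21 and 7.87 in the Artemis-ATM-deficient lines, against 6.41, 6.24 and 6.24 in the IkB-DN lines and 6.05, 5.90 and 6.14 in the Artemis-deficient lines (1.74 ± 0.25). For Cited2 and Apobec3 the Artemis-ATM-deficient lines stood apart.

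Over all called genes, the Artemis-deficient mean lay between the means of the perturbed groups for 238 of 273 higher (87.2%) and 356 of 419 lower genes (85.0%). The share was 43.9% of genes not called and 46.8% of all genes tested. Called genes were selected for a wide gap between the perturbed means (median difference 1.129 and -1.252, beside -0.009 for genes not called). Another mean falls inside a wide gap more readily, so these shares are a description and test no direction of change. The Artemis-deficient mean was nearer the Artemis-ATM-deficient mean for 170 of the higher (62.3%) and 233 of the lower genes (55.6%), beside 55.2% of genes not called. Over all called genes that share was 58.2%, and it ranged over 37.7% to 68.6% with 1 sample left out, lowest without Artemis-ATM-deficient line 1, so the side depends on single samples. Single Artemis-deficient samples differed in this: 68.7% of called genes were nearer the Artemis-ATM-deficient mean in replicate 1, 63.0% in replicate 2 and 40.2% in replicate 3, beside 58.6%, 56.6% and 46.4% of all genes tested. Replicate 3 correlated at 0.939 to 0.944 with the IkB-DN samples and at 0.887 to 0.912 with the Artemis-ATM-deficient lines, whereas replicate 1 correlated at 0.894 to 0.901 with the IkB-DN samples and at 0.921 to 0.927 with the Artemis-ATM-deficient lines. The labels do not name the parent line or lines of the IkB-DN samples, and the part of the parent in the differences was not tested.

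Sex-linked transcripts split the groups. Xist, the RNA that coats the inactive X chromosome, had levels of 11.71 and 11.41 in the Artemis-ATM-deficient lines, against 4.61, 4.15 and 4.26 in the IkB-DN lines and 11.90, 4.52 and 4.56 in the Artemis-deficient lines (7.22 ± 1.61, adjusted p = 0.0236). The Y-linked Eif2s3y stood at 3.19 and 2.87 in the Artemis-ATM-deficient lines, against 10.01, 10.32 and 10.48 in the IkB-DN lines, and fell by 7.24 ± 1.78 (adjusted p = 0.0365). Uty (-4.84) and Kdm5d (-4.82), also Y-linked, fell with it. The sex of the line of origin and the genotype thus ran together in the compared groups, and their parts cannot be told apart for any gene of this comparison. The Artemis-deficient samples, of 1 genotype, held both patterns, with Kdm5d at 2.62, 8.18 and 7.88. Leaving out all X and Y genes gave 1380 called probe sets.

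Markers of other blood cells were also read. Of 13 listed neutrophil and monocyte markers, 7 passed the filter. Lyz1 and Lyz2 passed it through the IkB-DN samples alone, so their values are given as a description. Lyz2, lysozyme M, had levels of 3.42 and 4.03 in the Artemis-ATM-deficient lines, against 6.5, 6.63 and 7.04 in the IkB-DN lines and 3.30, 3.82 and 2.85 in the Artemis-deficient lines, and its near-identical copy Lyz1 may share its probes. The summed signal of the 12 such markers on the array ranged over 254 to 1221 in the Artemis-ATM-deficient lines, 915 to 986 in the IkB-DN lines and 169 to 499 in the Artemis-deficient lines. Without both lysozyme genes the ranges were 243 to 1215 in the Artemis-ATM-deficient lines and 615 to 737 in the IkB-DN lines. Of the members left, S100a8, S100a9 and Mpo were at signals of 7.24 or less. Itgam was the largest, at 819 and 126 in Artemis-ATM-deficient lines 1 and 2, against 452, 389 and 431 in the IkB-DN lines. Fcgr3 stood at 247 and 1.55, against 18.6, 28.0 and 18.1, and Csf1r at 79.2 and 68.8, against 167, 119 and 120, in the same order. The part of such cells in the differences was not tested. The 11 T and NK cell markers summed to 101 to 107 in the Artemis-ATM-deficient lines, against 525 to 712 in the IkB-DN lines, and only 1 of them was tested, without a call. Klrd1, an NK cell receptor gene chosen after its values were seen, made up most of that sum, with a signal of 1.86 and an empty cell in the Artemis-ATM-deficient lines, against 419, 571 and 600 in the IkB-DN lines. The T cell genes Cd3d and Cd3e had empty cells throughout both groups. Erythroid and dendritic markers did not pass the filter.

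Among the compared samples, the genes of chromosome 10 stood apart in Artemis-ATM-deficient line 2. The median deviation of its genes from the mean over the lines was 0.392 in Artemis-ATM-deficient line 2 and -0.074 to 0.026 in the other line samples, while the other chromosomes of line 2 lay at -0.12 to 0.018. Shifts of like size were present in other lines of the fit: on chromosome 5 in RAG-2-deficient replicate 1 (0.407) and wild type replicate 2 (0.357), and on chromosome 18 in wild type replicate 2 (0.337). Of 481 chromosome 10 genes tested, 38 rose and 13 fell (10.6% called), against 4.47% to 9.09% called on other chromosomes. Their median difference from the IkB-DN lines was 0.002 in line 1 and 0.413 in line 2. Prdm1, Vsir, Socs2 and Cited2, which rose, and Lyz1 and Lyz2, which were lower, lie there. They are only some of the genes called on that chromosome, and the part of the shift in these calls was not tested. Leaving out the chromosome, a choice made after seeing the data, gave 1288 called probe sets.

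**Figure D5:**
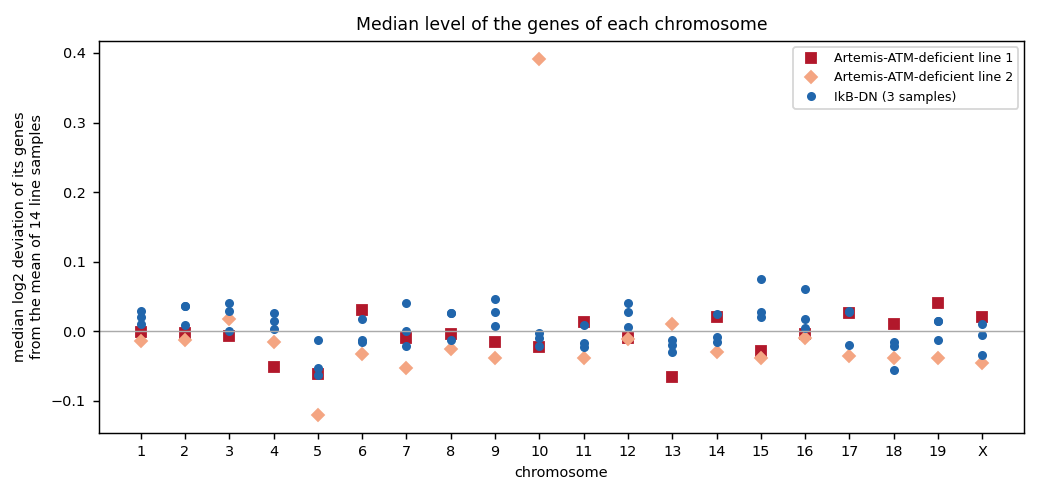
Median deviation (log2, vertical axis) of the tested genes of each chromosome (horizontal axis) from their mean over the line samples, for each Artemis-ATM-deficient and IkB-DN sample. Chromosome 10 in Artemis-ATM-deficient line 2, at 0.392, stands away from the other samples drawn, which lie between -0.023 and -0.002 on that chromosome.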

How the data were processed

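Affymetrix Mouse Genome 430 version 2 arrays were scanned and summarised with GeneChip Operating Software, per the labels; for summary method, background correction, scaling and genome build, nothing was given in the sources. Probe sets carry deposited log10 signals, a base inferred from the values and not stated by the authors; 6323 to 6640 cells per line array are empty, and line medians were 26.8 to 27.7 as signals. From these, log2(signal + 6) was taken, technical arrays were averaged per line, empty cells stayed empty, and probe sets at their array's median in at least 2 of 14 line samples were kept. The number of arrays limits the precision. Of all probe sets, 34294 name 1 gene, 916 several and 8990 none. A limma fit (limma 3.58.1, R 4.3.3) with 5 group means, eBayes with a trend and two-sided Benjamini-Hochberg adjustment over all probe sets tested gave the p-values, on 9 residual and 3.09 prior degrees of freedom; it was tested on simulated data. No permutation of 2 against 3 samples can reach the threshold, so none was run. Python 3.11.15 and matplotlib 3.10.9 made the other values and plots.

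Genes named are the 15 largest rises and the 15 largest falls among called genes with 5 values and groups that do not overlap, up to 5 called members of each list by adjusted p, the targeted genes, the sex-linked transcripts, and up to 3 members of a list without a call; others are said to be chosen later. The members and lists were chosen with earlier results of these data known. Alternatives covered the fit, technical arrays, pseudocount, filter, scaling, X and Y genes, chromosome 10 and each sample left out. The bone marrow arrays were not used here.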

Additional observations from a re-analysis of the deposited data

How the results depend on the processing

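The count of 1436 probe sets called between the Artemis-ATM-deficient and IkB-DN lines became 3193 with only these groups in the fit and 4 with the IkB-DN arrays averaged to 1 sample, and ranged over 344 to 1685 with 1 sample left out. The 61 probe sets called between the Artemis-ATM-deficient and Artemis-deficient lines became 22 and 24 under the first pair of settings, and 29 to 66 with a sample left out. The 446 called between the IkB-DN and Artemis-deficient lines became 823 and 5, and 59 to 1067 with a sample left out, the highest without Artemis-deficient replicate 3. The share of called genes nearer the Artemis-ATM-deficient mean (58.2%) ranged over 37.7% to 68.6% with a sample left out, lowest without Artemis-ATM-deficient line 1, and has no value with the IkB-DN arrays averaged, as no gene was called. Where 1 Artemis-ATM-deficient line is left out, the lone line is assumed to vary like the other groups. Pseudocount, filter, scaling, eBayes settings and technical array gave 1145 to 1486 calls. Of the 55 called named genes, 43 to 52 kept their call in those of these settings that tested all of them, and 16 to 26 without 1 IkB-DN sample. Where tested, their calls did not hold with the IkB-DN arrays averaged. No named gene changed direction under any of the 22 alternatives, but this was largely fixed in advance. All 684 called genes with 5 values had groups that did not overlap, so leaving out a compared sample cannot turn their sign. Averaging the IkB-DN arrays leaves the difference as it was. List medians that changed sign under some alternative ranged over -0.33 to 0.81 (p53 targets), -0.37 to 0.10 (NF-kB targets), -0.05 to 0.18 (NF-kB subunits and IkB inhibitors), -0.71 to 0.02 (immediate early), -0.14 to 0.08 (IL-7 receptor, STAT5 and SOCS), -0.24 to 0.15 (glycolysis and hypoxia) and -0.03 to 0.24 (interferon response). The sign also changed for homing and adhesion (-0.44 to 0.03), cytokines and TNF family (-0.23 to 0.05) and B lineage factors (-0.25 to 0.05). It changed too for BCL-2 family and PIM (-0.12 to 0.10), MYC network (-0.08 to 0.14) and RAG and pre-B receptor genes (-0.20 to 0.01). The same held for NF-kB upstream signalling (-0.11 to 0.07), unfolded protein response (-0.06 to 0.02) and mature B cell markers (-0.37 to 0.09). The median of D cyclins and CDK inhibitors ranged over -0.165 to 0.288. The cholesterol synthesis median ranged over 0.20 to 0.88, the S phase median over -0.44 to -0.11 and the G2 and M phase median over 1.36 to 2.13. No paired analysis was possible because the replicate numbers were given in accession order and tie no line of 1 group to a line of another. The cause of these changes was not tested.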
